A study of Mus musculus with 2 samples.

Results

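The ephrin, Slit-Robo and netrin guidance genes were taken as the genes whose symbol names an EphA or EphB receptor, an ephrin-A or ephrin-B ligand, a Slit ligand, a Robo receptor, a netrin, a netrin-G protein, an Unc5 receptor or Dcc, and 40 of the 32285 listed genes matched. They were measured in single hippocampal Cajal-Retzius (CR) cells of mice at postnatal day 14. Each barcode with at least 2000 UMIs (unique molecular identifiers, which tag single RNA molecules) and at least 5 Reln UMIs counted as a cell. This gave 1003 cells in the control library and 390 in the knockout library. The control mice were ΔNp73-Cre; Cic flox/+; tdT and the knockout mice were ΔNp73-Cre; Cic flox/flox; tdT littermates. Both groups therefore carried the Cre driver and the tdT reporter, and the control still lacked 1 floxed copy of Cic, the gene of the transcriptional repressor Capicua, in its CR cells. The Cre is made from the ΔNp73 form of Trp73, which is expressed by CR cells, and per the study it did not delete Cic in every hippocampal CR cell. Hippocampi of 4 animals were pooled per library, 3 males and 1 female in the control and 2 males and 2 females in the knockout, and living cells with tdT fluorescence were sorted. With 1 library per genotype no value had a replicate check and no test was made. Every interval below is a 95% interval for counting error alone.

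CR cells are the reelin-secreting neurons of the outermost layer of the cortex and hippocampus, and most of them die in the postnatal weeks. Eph receptors are receptor tyrosine kinases that bind membrane-held ephrins on neighbouring cells, and both partners can signal. Slits are secreted ligands of the Robo receptors and mostly repel growing axons. Netrins are laminin-related ligands that attract axons through Dcc and repel them through Unc5 receptors, whereas netrin-G proteins are held at the membrane and act in synapse formation.

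The median cell held 6224 UMIs in the control library and 6664 in the knockout library, and no barcode was shared between the 2 sets of cells. All 9 fixed CR markers apart from Reln had a UMI in at least 25% of cells in both libraries, with a summed level of 7146 and 7007 CPM (counts per 1000000 UMIs). Of 40 markers of other cell types in 9 lists, 38 were detected in fewer than 25% of cells in each library, and 7 were at 0 in the control and 18 in the knockout. The exceptions were Cspg4, at 60.0 and 77.7 CPM, and Rgs5, at 81.0 and 75.9 CPM, which mark oligodendrocyte precursors and mural cells elsewhere. Cic had 389 UMIs in the control and 142 in the knockout, a ratio of knockout to control of 0.871 (0.714 to 1.06), and reads outside the deleted stretch could still be counted, so this ratio does not check the labels. Etv4, a gene that Capicua is known to repress, went from 13 to 196 UMIs, a ratio of 36.0 (20.6 to 68.8). Cells whose genes of the respiratory chain took at least 1.8% of UMIs made up 8.28% and 8.72% of the 2 libraries, and results that move with them are given with and without them.

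Capicua is known to bind the octamers TGAATGAA and TGAATGGA, so promoters of the members were read for both, on either strand. RefSeq gave 40 promoter windows of 300 bases (250 before and 50 after a start, GRCm38.p6) for 35 of the 40 genes, and there was no entry for Dcc, Efnb3, Ntn1, Slit1 and Unc5d. The letters occurred in 1 of the 40 windows (2.50%) and in 811 of 32851 windows of all genes (2.47%). The 1 match, in capitals, began at position -15 from the start of Epha2 (chr4:141300971-141301270, plus strand), which had no UMI in any cell of either genotype. A window of Robo2, the member with the most UMIs (chr16:74411776-74412075, minus strand), is shown beside it. So is the window of Slit3, the Slit ligand with the most UMIs (chr11:35121206-35121505, plus strand). Robo2 had further windows at chr16:75092721-75093020 and chr16:75447244-75447543, which lie outside the span used for the gene below and are not shown. All of these windows of Robo2 and Slit3 hold neither octamer, which says only that these letters are not in them.
Epha2: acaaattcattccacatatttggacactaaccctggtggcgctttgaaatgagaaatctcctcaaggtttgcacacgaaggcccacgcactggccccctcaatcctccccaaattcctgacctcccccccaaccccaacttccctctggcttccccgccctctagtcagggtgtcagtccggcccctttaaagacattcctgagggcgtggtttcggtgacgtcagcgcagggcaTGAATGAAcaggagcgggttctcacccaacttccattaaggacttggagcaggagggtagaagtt
Robo2: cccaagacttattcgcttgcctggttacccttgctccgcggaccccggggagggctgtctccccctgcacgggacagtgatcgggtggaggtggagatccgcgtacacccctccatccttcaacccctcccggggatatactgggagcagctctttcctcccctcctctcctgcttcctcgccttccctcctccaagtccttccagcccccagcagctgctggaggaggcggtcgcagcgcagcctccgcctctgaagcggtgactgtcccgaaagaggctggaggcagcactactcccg
Slit3: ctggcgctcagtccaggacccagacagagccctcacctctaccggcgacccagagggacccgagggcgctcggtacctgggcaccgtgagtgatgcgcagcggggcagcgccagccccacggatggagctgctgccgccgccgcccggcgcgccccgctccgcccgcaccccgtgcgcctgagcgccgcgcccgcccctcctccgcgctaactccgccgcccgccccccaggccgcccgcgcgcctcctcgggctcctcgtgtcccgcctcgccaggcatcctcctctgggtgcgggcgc

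Among members with a UMI, levels ran from 3796 to 0.1515 CPM in the control and from 3294 to 0.3615 CPM in the knockout. The lowest value in each library rested on 1 UMI. Of the 40 genes, 21 had at least 100 UMIs over both libraries, 16 had 1 to 99, and Epha2, Robo3 and Robo4 had 0. Together the members took 0.806% of control UMIs and 0.736% of knockout UMIs, mitochondrial and ribosomal protein genes left out. Robo2, Dcc and Epha3 held 78.5% of the members' UMIs in the control and 78.4% in the knockout. The order of the 21 genes was nearly the same in the 2 libraries (Spearman's rho 0.986 across genes, which are not independent replicates). CPM and the length of the gene were only loosely related over the same genes (rho 0.366). CPM are given for each gene, and where genes are set against each other the level per kb of the longest annotated transcript is given too. With counting from the 3′ end a UMI does not scale with length, so an order that differs between the 2 scales is not settled.

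**Figure D1:**
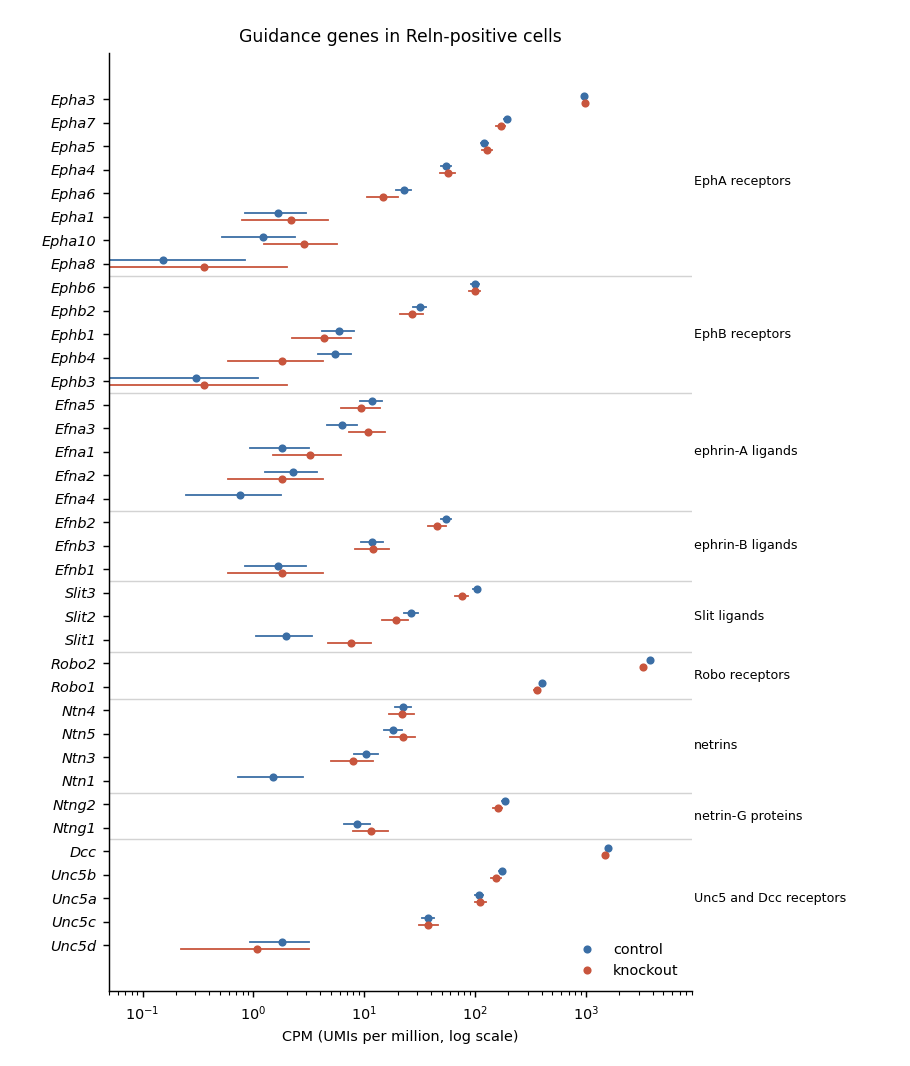
Level of each guidance gene with a UMI in the control (blue) and knockout (red) cells, in CPM on a log axis, grouped by family, with 95% counting intervals as lines. Robo2, Dcc and Epha3 stand at the right with 3796, 1574 and 952.8 CPM in the control, and genes at 0 in a library have no point there.

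Robo2, the receptor of Slits with the highest level, covers chr16:73891839-74411825 on the minus strand (GRCm38, GENCODE M21). It stood at 3796 CPM (3749 to 3844) in control cells and 3294 CPM (3227 to 3363) in knockout cells, a ratio of knockout to control of 0.868 (0.847 to 0.889). All but 3 control cells and every knockout cell had a Robo2 UMI, and after thinning each cell to 2000 UMIs the shares were 98.0% (96.9 to 98.8) and 97.4% (95.3 to 98.8). In droplets of 20 to 100 UMIs, which hold mainly free RNA, the shares were 1.99% and 0.929%, at median depths of 89 and 44 UMIs. Robo2 stood at 288 and 262 CPM there. At such depths these shares cannot serve as a reference for cells lacking the gene. Free RNA was estimated to give 0.0891% and 0.0434% of the Robo2 UMIs in cells. Robo2 was thus a gene of nearly all of these cells in both genotypes. Per kb of transcript its level was 442 CPM in control cells and 383 in the knockout.

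Robo1 lies on the same chromosome (chr16:72308306-73046095, plus strand) and was far less even. It had 403.5 CPM (388.4 to 419.2) in control cells and 360.1 CPM (338.1 to 383.2) in knockout cells, a ratio of 0.892 (0.829 to 0.96). Of 1003 control cells 450 had no Robo1 UMI, whereas the upper quartile of cells lay above 562.9 CPM and the top 5% above 1666 CPM. In the knockout 174 of 390 cells had none, with the same 2 limits at 506.8 and 1525 CPM. Robo1 was thus detected in only a part of the cells at this depth. Thinned shares were 37.0% and 34.6%. In droplets the shares were 1.04% and 0.450%, but at median depths of only 89 and 44 UMIs, so they do not compare with those of cells. Scaled to CPM, Robo1 stood at 145 and 123 in droplets. Robo3 and Robo4, a receptor of commissural axons and a receptor of vessels, had no UMI, which allows up to 0.454 CPM in control cells and 1.08 CPM in the knockout (3 UMIs per library).

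Among the ligands of the Robo receptors, Slit3 (chr11:35121224-35708507, plus strand) had 103.9 CPM (96.28 to 112) in control cells and 75.92 CPM (66.0 to 86.92) in knockout cells. Its ratio of knockout to control was 0.731 (0.623 to 0.854), with 0.792 (0.604 to 1.03) in female cells and 0.688 (0.551 to 0.851) in male cells. Slit2 stood at 26.51 and 19.16 CPM, a ratio of 0.723 (0.521 to 0.988), with 0.464 (0.266 to 0.782) in female cells and 0.857 (0.553 to 1.29) in male cells. Scaled to transcript length, per kb, Slit3 reached 19.9 and 14.5 CPM and Slit2 2.66 and 1.92. Over all cells both were lower in the knockout library by less than 1.5-fold, the fold used throughout as the limit for calling a difference large. Slit1 went the other way, from 13 control UMIs to 21 knockout UMIs, a ratio of 3.86 (1.84 to 8.38). It was named after its values were seen, since it stayed under 100 UMIs and so outside the count of large differences, and its ratio was 5.07 (1.39 to 27.8) in female cells with 3 control UMIs and 2.63 (0.902 to 7.40) in male cells. Slit1 was not alone in this, since Ephb4 and Efna3, also under 100 UMIs, had intervals without 1 and are given below. The CR cells at this age thus held RNA of a Slit ligand and of its receptors in the same population. Slit3 and Slit2 overlap another counted gene on the same strand (Gm12122 and Gm20475), so part of their reads could have been assigned otherwise.

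Dcc (chr18:71253634-72351069, minus strand), the netrin receptor for attraction, had 1574 CPM (1544 to 1605) in control cells and 1490 CPM (1445 to 1536) in knockout cells, a ratio of 0.946 (0.913 to 0.981). It was detected in 79.6% (76.9 to 82.0) and 77.2% (72.7 to 81.3) of thinned cells. In the far shallower droplets, at medians of 89 and 44 UMIs, the shares were 1.00% and 0.503% and the levels 142 and 138 CPM. The median cell held 1269 and 1227 CPM, but 79 control and 30 knockout cells had no UMI and the top 5% of cells lay above 4330 and 3979 CPM. Dcc was thus widespread and varied widely between cells of 1 library. Per kb of transcript it reached 153 CPM in control cells and 144 in the knockout, and Epha3 168 and 175, although Dcc had more UMIs, so their order is not settled.

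The Unc5 receptors, which turn the response to netrin into repulsion, were present at lower levels. Unc5b had 174.8 and 155.1 CPM, a ratio of 0.887 (0.792 to 0.992). Unc5a had 108.8 and 111.7 CPM, a ratio of 1.03 (0.896 to 1.18), and its level in droplets was 101 and 77.0 CPM, though free RNA was estimated to give only 1.09% and 0.377% of its UMIs in cells. Unc5c had 38.02 and 37.96 CPM, a ratio of 0.998 (0.787 to 1.26). None of these 3 differed between the libraries by as much as 1.5-fold. Unc5d had 12 and 3 UMIs.

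The netrins themselves were scarce. Ntn4, a netrin of basement membranes, had 22.27 CPM (147 UMIs) in control cells and 22.05 CPM (61 UMIs) in knockout cells, a ratio of 0.990 (0.722 to 1.34). Ntn5 had 18.33 and 22.42 CPM, a ratio of 1.22 (0.886 to 1.67). Ntn3 had 69 and 22 UMIs, and it overlaps Tbc1d24 on the same strand. Ntn1, the ligand best known for guiding axons through Dcc, had 10 UMIs in the control and none in the knockout, where a count of 0 allows up to 1.08 CPM. Per kb of transcript Ntn1 stood at 0.258 CPM in the control, where Dcc stood at 153.

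Of the netrin-G proteins, which sit in the membrane by a lipid anchor, Ntng2 (chr2:29194541-29253005, minus strand) was the main one. It had 185.7 CPM (175.5 to 196.4) in control cells and 159.8 CPM (145.2 to 175.4) in knockout cells, a ratio of 0.860 (0.770 to 0.96). Per kb of transcript it reached 94.9 and 81.7 CPM, and Robo1, which had more UMIs, 53.4 and 47.6. It shares its strand and part of its length with 6530402F18Rik. Ntng1 had 57 and 32 UMIs, a ratio of 1.34 (0.841 to 2.10).

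Epha3 (chr16:63543534-63864175, minus strand) was the leading Eph receptor. It had 952.8 CPM (929.4 to 976.6) in control cells and 988.5 CPM (951.7 to 1026) in knockout cells, a ratio of 1.04 (0.992 to 1.09). A UMI was found in 74.6% (71.8 to 77.2) and 72.3% (67.6 to 76.7) of thinned cells. In the far shallower droplets, at medians of 89 and 44 UMIs, the shares were 0.610% and 0.268% and the levels 83.1 and 70.8 CPM. Unlike for Robo2 and Dcc, the interval of the Epha3 ratio over all cells held 1. Without the cells high in respiratory-chain genes the Dcc interval (0.93 to 1) reached 1 too. The Epha3 ratio was 0.935 (0.865 to 1.01) in female cells and 1.10 (1.04 to 1.17) in male cells, and that difference was not tested. Robo2, Dcc and Epha3 were found together in 59.3% of the thinned cells of the control and 55.1% of those of the knockout, and 5 and 3 cells had none of the 3.

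The other EphA receptors had fewer UMIs. Epha7 had 194.0 and 170.3 CPM, a ratio of 0.878 (0.788 to 0.976), and Epha5 had 121.2 and 129.4 CPM, a ratio of 1.07 (0.940 to 1.21). Epha4, a receptor that can bind ephrins of both classes, had 54.53 and 56.76 CPM, a ratio of 1.04 (0.857 to 1.26). For Epha7 the ratio was 0.696 (0.572 to 0.844) in female cells and 1.02 (0.885 to 1.16) in male cells, and that difference was not tested. Epha6 had 22.72 CPM (150 UMIs) in control cells and 14.82 CPM (41 UMIs) in knockout cells. Epha1, Epha8 and Epha10 had at most 11 UMIs in a library.

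Of the EphB receptors, Ephb6, whose kinase domain is inactive, had 99.67 CPM (92.2 to 107.6) in control cells and 99.42 CPM (88.02 to 111.9) in knockout cells. Its ratio was 0.998 (0.863 to 1.15). Ephb2 had 31.66 and 26.75 CPM, a ratio of 0.845 (0.639 to 1.11). Scaled per kb, Ephb6 reached 26.5 and 26.4 CPM and Ephb2 2.90 and 2.45. Ephb1, Ephb4 and Ephb3 had 39, 36 and 2 UMIs in the control and 12, 5 and 1 in the knockout, so the EphB side rested on Ephb6 and Ephb2. On these few UMIs the Ephb4 ratio was 0.331 (0.102 to 0.848).

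UMIs of the ephrin ligands were few. Efnb2, an ephrin with a transmembrane domain, had 54.83 CPM (362 UMIs) in control cells and 45.55 CPM (126 UMIs) in knockout cells, a ratio of 0.831 (0.673 to 1.02). Efnb3 had 11.82 and 11.93 CPM, with 17.9 and 13.8 CPM in droplets. Efna5, a lipid-anchored ephrin, had 11.66 CPM (77 UMIs) and 9.40 CPM (26 UMIs), a ratio of 0.806 (0.496 to 1.27). The remaining ephrins were Efna3 with 42 and 30 UMIs and Efna1, Efna2, Efna4 and Efnb1 with 15 or fewer in each library. Efna3 had a ratio of 1.70 (1.03 to 2.79). Per kb of transcript Efnb2 reached 11.4 and 9.50 CPM and Efna5 2.89 and 2.33, where Epha3 reached 168 and 175.

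**Figure D2:**
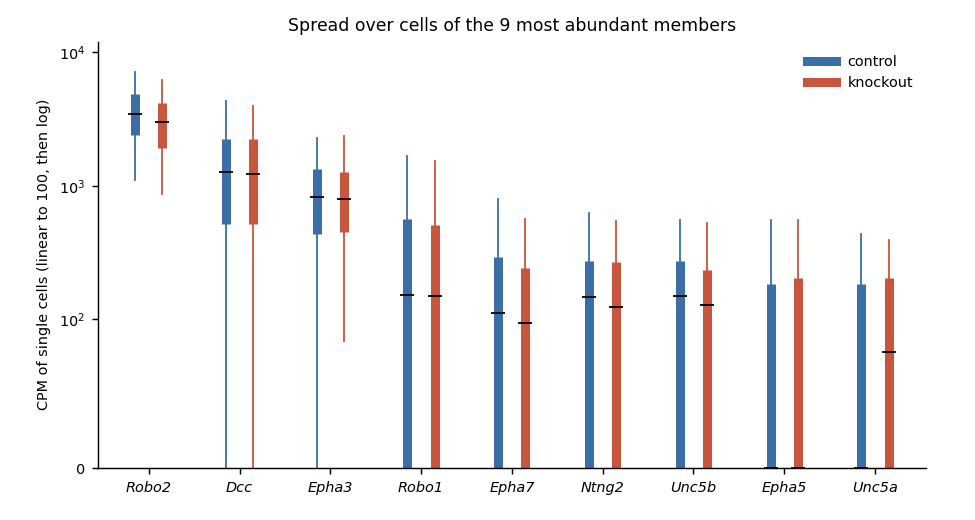
Spread of CPM over single cells for the 9 members with the most UMIs, control in blue and knockout in red. Black dashes are medians, thick bars the middle 50% of cells and thin lines the 5th to 95th percentile (linear axis to 100, then log). Robo2 lies above 0 in nearly all cells, whereas the bars of Robo1 reach down to 0 and up to 562.9 CPM in the control.

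The comparison of the genotypes asked whether the members differ between CR cells of the conditional knockout and of the heterozygous control. Among the 21 members with at least 100 UMIs, 0 were higher in the knockout by at least 1.5-fold, where 2.69% of 9615 genes were, and 1 was lower, where 1.63% were. That gene was Epha6 (chr16:59653483-60605531, minus strand), with a ratio of 0.652 (0.450 to 0.927). Epha6 rested on 41 knockout UMIs, and its level in knockout droplets was 29.6 CPM against 3.67 CPM in control droplets. Within female cells its ratio was 0.633 (0.348 to 1.12) and within male cells 0.697 (0.413 to 1.12). The share of 4.76% of members thus rests on 1 gene with few UMIs.

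Smaller differences leaned to 1 side. The median ratio of the 21 members was 0.892, and 15 of them lay below 1, whereas the median of all tested genes was 1.00 and 49.1% lay below 1. Among these 15 members, Unc5c and Ephb6 stood at 0.998 and Ntn4 at 0.990. The intervals of these genes and of Ephb2, Efnb2 and Efna5 held 1, and those of the rest of the 15 did not. This sorting moved without the cells high in respiratory-chain genes. Ephb2 then had 0.738 (0.544 to 0.99) and Efnb2 0.788 (0.626 to 0.985), which leave out 1. Slit2 had 0.824 (0.59 to 1.14) and Unc5b 0.92 (0.816 to 1.04), which hold 1, and Dcc had 0.966 (0.93 to 1), which reaches it. By family, the ratio of summed UMIs was 0.870 (0.85 to 0.890) for the Robo receptors, 0.776 (0.676 to 0.888) for the Slit ligands, 0.882 (0.792 to 0.981) for the netrin-G proteins and 0.946 (0.916 to 0.978) for the Unc5 and Dcc receptors. It was 1.01 (0.974 to 1.05) for EphA receptors, 0.928 (0.820 to 1.05) for EphB receptors, 1.11 (0.821 to 1.48) for ephrin-A ligands, 0.868 (0.721 to 1.04) for ephrin-B ligands and 0.997 (0.816 to 1.21) for netrins. These sums follow the member with the most UMIs, Robo2 for the Robo receptors, Slit3 for the Slits and Epha3 for EphA receptors, and members of 1 family differed: Epha6 and Epha7 lay below 1 beside Epha3 at 1.04, and Slit1 above 1 beside Slit2 and Slit3.

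The knockout library held a larger share of cells with female transcripts, 176 against 194 with male ones, where the control had 227 and 702. Within female cells Robo2 had 3176 CPM in the knockout and 3816 CPM in the control, a ratio of 0.832 (0.799 to 0.867). Within male cells it had 3444 and 3798 CPM, a ratio of 0.907 (0.879 to 0.936). Robo2 was thus lower in the knockout within each sex of these pools. The control pool held 1 female, so each ratio in female cells sets 1 animal against 2. Dcc had a ratio of 0.840 (0.790 to 0.892) in female cells and 0.967 (0.921 to 1.02) in male cells.

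**Figure D3:**
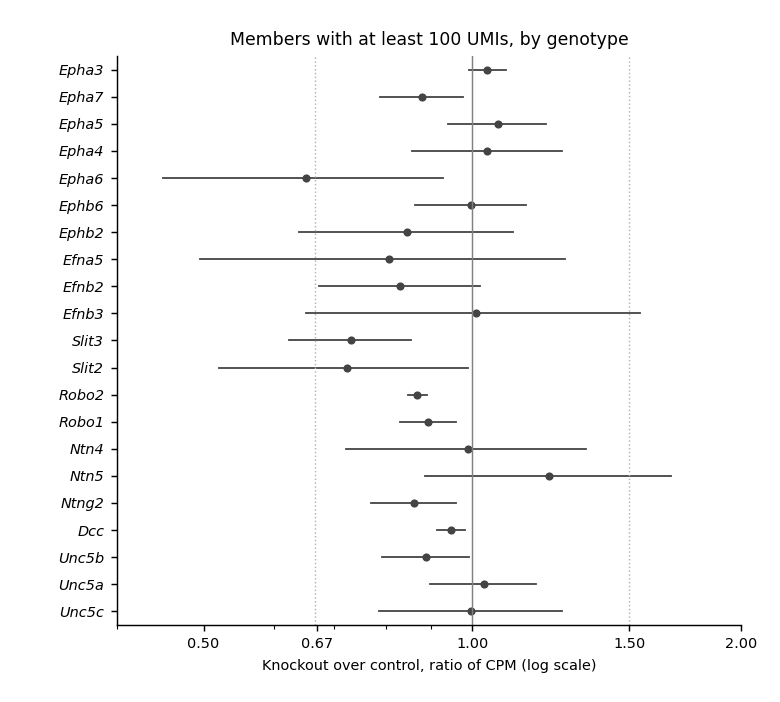
Ratio of knockout to control CPM for the 21 members with at least 100 UMIs, on a log axis, with 95% counting intervals; dotted lines mark 1.5-fold in either direction. Epha6 alone lies beyond a dotted line, at 0.652, and Robo2, Robo1, Slit2 and Slit3 lie between 0.723 and 0.892.

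The study named Cck and Grik1 among the marker genes of its groups of CR cells. Its text does not name Chst8 or Alkal2, which were used here as a further marker pair. The members were compared between cells with and without a UMI of a marker, within each library. Cck, the gene of the neuropeptide cholecystokinin, marked 324 control and 110 knockout cells, Grik1, a kainate receptor subunit, marked 194 and 70, and Chst8 or Alkal2, a sulfotransferase and a ligand of the receptor kinase Alk, marked 232 and 91. A difference counted as large when it reached 1.5-fold in the same direction in both libraries. Marker-positive cells were somewhat deeper, with medians of 6397 against 6148 UMIs for Cck in the control and 7869 against 6361 UMIs for Chst8 or Alkal2 in the knockout. Free RNA also carried the markers, since Cck had 130 and 85.6 CPM in droplets against 155 and 130 CPM in cells. A Cck UMI was found in 0.94% and 0.319% of droplets, at median depths of 89 and 44 UMIs, against 32.3% and 28.2% of cells. How much free RNA blurs the groups was not tested.

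Cck-positive cells had less Dcc and Robo1. Dcc stood at 1085 CPM in Cck-positive and 1834 CPM in Cck-negative control cells, and at 814.5 and 1763 CPM in the knockout. The ratios were 0.591 (0.565 to 0.619) and 0.462 (0.424 to 0.503). Both libraries thus gave the same direction. Robo1 stood at 259.2 against 480.1 CPM in the control, a ratio of 0.540 (0.492 to 0.592), and at 206.1 against 422.3 CPM in the knockout, a ratio of 0.488 (0.410 to 0.578). These were 2 of 21 members lower by at least 1.5-fold, where 1.52% of 9614 genes were. In thinned cells a Dcc UMI was found in 66.7% of Cck-positive and 85.7% of Cck-negative control cells, and in 58.2% and 84.6% of knockout cells. Thinned shares for Robo1 were 24.4% and 43.0% in the control and 24.5% and 38.6% in the knockout.

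Epha4 went the other way. It had 72.11 CPM in Cck-positive and 45.21 CPM in Cck-negative control cells, a ratio of 1.60 (1.29 to 1.97), and 82.96 and 46.18 CPM in the knockout, a ratio of 1.8 (1.29 to 2.49). It was the 1 member of 21 that was higher by at least 1.5-fold, where 1.10% of genes were. With positivity set after thinning each cell to 2000 UMIs its ratios were 1.8 and 1.40, so the second fell under the limit, whereas Dcc (0.588 and 0.492) and Robo1 (0.539 and 0.523) stayed past it.

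Robo2 and Epha3 differed little between the same cells, at 0.917 (0.893 to 0.942) and 0.877 (0.837 to 0.919) for Robo2 and at 0.944 (0.896 to 0.995) and 0.874 (0.801 to 0.952) for Epha3. Summed over the family, Unc5 and Dcc receptors had a ratio of 0.659 (0.633 to 0.686) in control cells and 0.514 (0.476 to 0.553) in knockout cells. All members together had 0.839 (0.824 to 0.855) and 0.756 (0.731 to 0.781). Among these 4 receptors, only Dcc and Robo1 were lower by at least 1.5-fold in both libraries. Since Robo2 has so many UMIs, its small ratio also counts in the sum over all members. Epha5 was lower in the knockout, at 62.85 against 156.3 CPM, with a ratio of 0.402 (0.292 to 0.543), but at 0.842 (0.722 to 0.98) in the control it did not reach the limit in both libraries.

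Unc5c and Efna5 passed the limit as higher in Grik1-positive cells, though both knockout intervals held 1. Unc5c stood at 71.85 CPM in Grik1-positive and 29.10 CPM in Grik1-negative control cells, a ratio of 2.47 (1.90 to 3.20), and at 54.07 and 34.09 CPM in the knockout, a ratio of 1.59 (0.997 to 2.46). Efna5 had 22.50 against 8.806 CPM in the control, a ratio of 2.55 (1.57 to 4.12). In the knockout it had 7 UMIs in positive and 19 in negative cells, a ratio of 1.53 (0.544 to 3.80), and without the cell with the most Efna5 UMIs in each group it was 1.40, under the limit. In thinned cells an Unc5c UMI was found in 11.9% of Grik1-positive and 4.57% of Grik1-negative control cells, and in 10.0% and 4.69% of knockout cells. For Efna5 these shares were 3.61% and 2.22% in the control, but 0% and 1.56% in the knockout, the opposite direction. Against cells with no marker the Unc5c ratio was 2.62 in the control and 1.05 in the knockout, where the interval above also holds 1. The Unc5c interval thus lay above 1 in the control alone, although the knockout ratio and thinned shares went in the same direction. These were 2 of 21 members, where 0.801% of 9614 genes were higher, and 0 members were lower, where 1.65% were.

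Dcc was higher in Grik1-positive cells by less than the limit, with 2028 against 1454 CPM in the control, a ratio of 1.39 (1.33 to 1.46), and 1795 against 1416 CPM in the knockout, a ratio of 1.27 (1.18 to 1.36). Unc5b was lower in both, at 0.714 (0.607 to 0.838) and 0.729 (0.550 to 0.953). The Unc5 receptors thus did not move as 1 group. Slit2 had a ratio of 2.03 (1.46 to 2.79) in control cells and 1.09 (0.505 to 2.15) in knockout cells. Epha6 had 0.485 (0.274 to 0.806) in control cells and 1.72 (0.799 to 3.48) in knockout cells.

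For Chst8- or Alkal2-positive cells the fewest members passed the limit at these settings. Of 21 members, 0 were higher by at least 1.5-fold in both libraries, where 0.947% of 9613 genes were, and 1 was lower, where 1.73% were. That gene was Ntn4, with 15.91 against 24.36 CPM in the control, a ratio of 0.653 (0.410 to 1.00), and 15.81 against 24.41 CPM in the knockout, a ratio of 0.648 (0.314 to 1.24). Both intervals reached 1, and the knockout value rested on 12 UMIs. Robo1 was higher in the control, at 554.3 against 353.9 CPM with a ratio of 1.57 (1.44 to 1.70), but not in the knockout, at 367.7 against 357.2 CPM with a ratio of 1.03 (0.893 to 1.18), and the difference between the libraries was not tested. Ntng2 had ratios of 1.18 (1.04 to 1.34) and 1.29 (1.05 to 1.58).

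**Figure D4:**
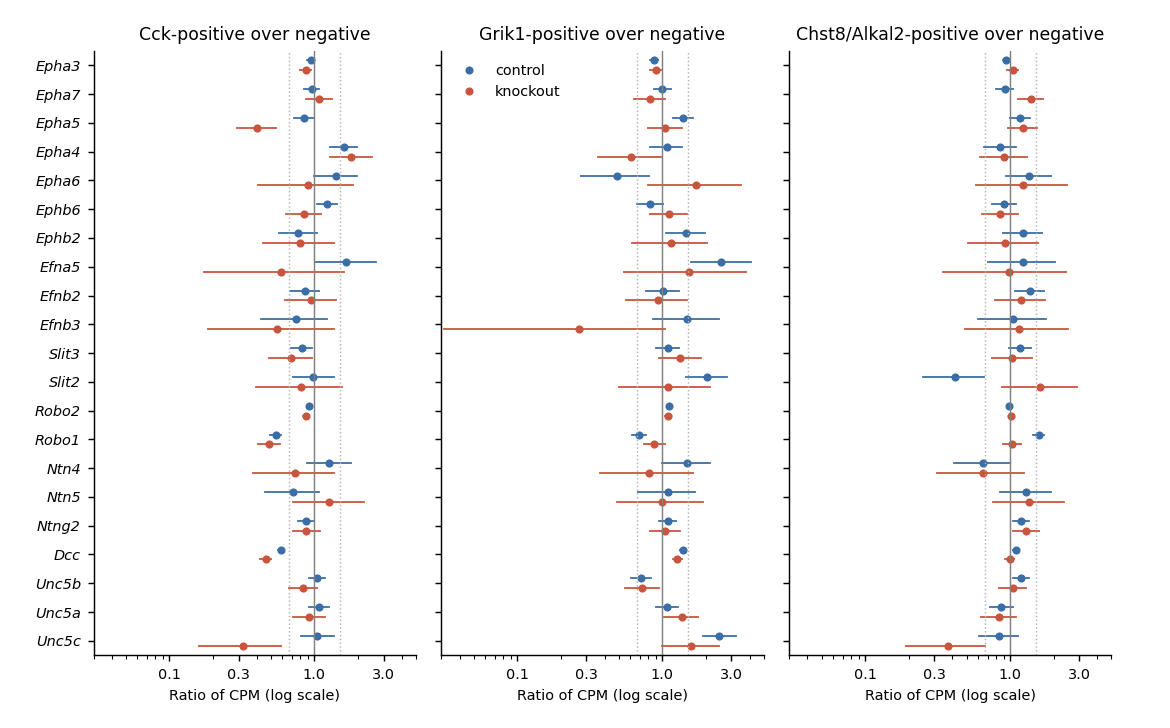
Ratio of CPM in marker-positive over marker-negative cells for the 21 members, for Cck (left), Grik1 (middle) and Chst8 or Alkal2 (right), control in blue and knockout in red, on a log axis with 95% counting intervals and dotted lines at 1.5-fold. Dcc and Robo1 lie left of the lower dotted line for Cck in both libraries, and Unc5c lies right of the upper one for Grik1, with a knockout interval (0.997 to 2.46) that holds 1.

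Some cells carried UMIs of several markers, so cells were also split into those with 1 marker alone, those with several and those with none. For Dcc, control cells with Cck alone had 856.7 CPM, those with Grik1 alone 2196, those with Chst8 or Alkal2 alone 1745, those with several 1554 and those with none 1722. In the knockout the same 5 groups had 771.9, 2029, 1520, 1277 and 1729 CPM. Cells with Cck alone were thus lowest and cells with Grik1 alone highest in both libraries.

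Robo1 had another order. In the control it stood at 276.7 CPM in cells with Cck alone, 362.2 with Grik1 alone, 731.6 with Chst8 or Alkal2 alone, 248.3 with several and 427.2 with none, and in the knockout at 200.1, 375.3, 471.9, 241.1 and 430.6 CPM. Cells with Chst8 or Alkal2 alone were highest in both. In the knockout, however, their interval (407.8 to 543.2) overlapped those of cells with no marker (393.2 to 470.7) and with Grik1 alone (309.3 to 451.2). For Epha4 the values were 75.79, 44.98, 38.73, 67.73 and 46.06 CPM in control cells and 91.89, 23.25, 55.95, 57.40 and 50.51 in the knockout, with cells with Cck alone highest in both. Their intervals (62.23 to 91.43 and 67.03 to 123) overlapped those of cells with several markers in both libraries. In the knockout the interval also overlapped that of cells with Chst8 or Alkal2 alone (35.47 to 83.95). For Unc5c the values were 29.90, 83.04, 18.84, 54.39 and 27.46 CPM in control cells and 14.29, 83.03, 19.46, 16.07 and 51.39 in the knockout, with cells with Grik1 alone highest in both, and their intervals (64.98 to 104.6 and 53.73 to 122.6) overlapped those of cells with several markers in the control and with none in the knockout.

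**Figure D5:**
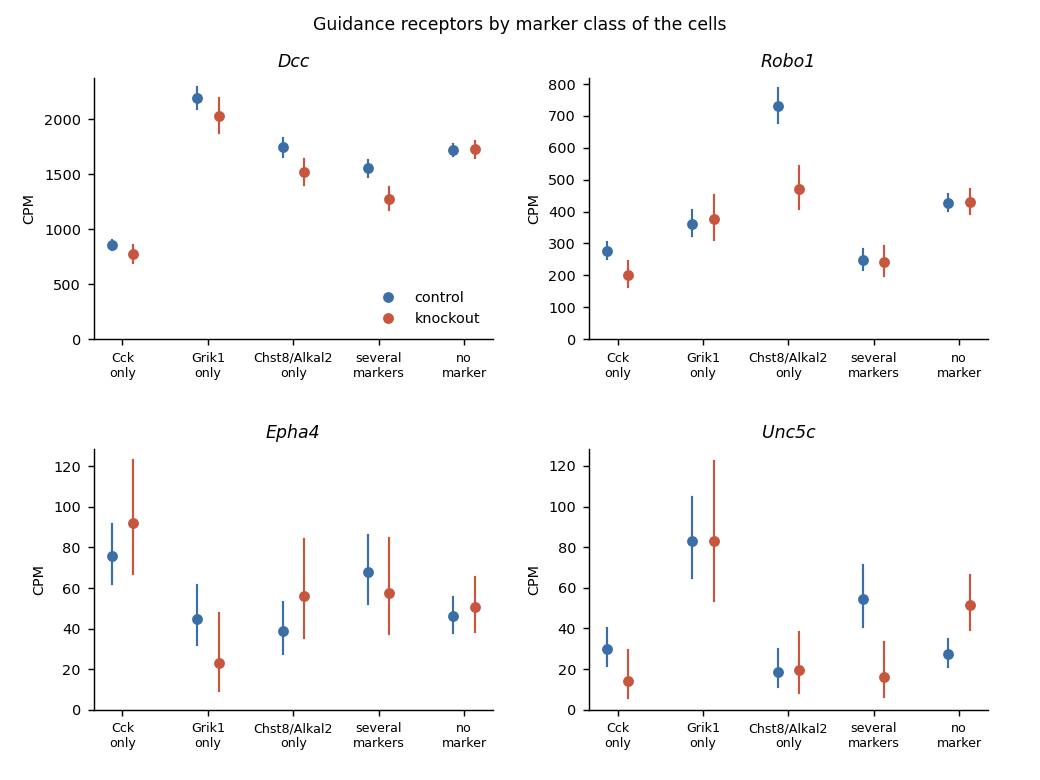
CPM of Dcc, Robo1, Epha4 and Unc5c in cells with Cck alone, Grik1 alone, Chst8 or Alkal2 alone, several markers and none, control in blue and knockout in red, with 95% counting intervals and axes from 0. Dcc is lowest in cells with Cck alone (856.7 and 771.9 CPM), and Robo1 is highest in cells with Chst8 or Alkal2 alone (731.6 and 471.9 CPM), with overlapping intervals in the knockout.

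Cells with a high share of respiratory-chain transcripts had a lower CPM of most members. The 21 members with at least 100 UMIs had median ratios of 0.724 in the control and 0.752 in the knockout, where all tested genes had 0.913 and 0.941. Of these members 20 and 17 lay below 1, where 55.8% and 53.8% of all 9615 tested genes did. The exceptions were Efnb3 in both libraries and Ephb2, Unc5c and Efnb2 in the knockout, and Efna3, under 100 UMIs, had 2.40 (1.12 to 4.82) and 2.32 (0.934 to 5.27). The 83 such control cells had 2181 CPM of Robo2 against 4066 CPM in the other 920, a ratio of 0.536 (0.512 to 0.561), and the 34 knockout cells had 2215 against 3494 CPM, a ratio of 0.634 (0.592 to 0.678). Dcc had ratios of 0.599 (0.560 to 0.640) and 0.511 (0.457 to 0.570), and Epha3 0.502 (0.457 to 0.551) and 0.752 (0.669 to 0.843). The 3 leading receptors thus all took a smaller share of UMIs in these cells in both libraries. As counts, Robo2 had 2058 UMIs in the 83 control cells and 23004 in the other 920. In the knockout it had 957 UMIs in the 34 cells and 8155 in the other 356. The lower CPM of the cells high in respiratory-chain genes need not mean fewer UMIs per cell, since they were also deeper. These cells had medians of 13502 and 14230 UMIs against 6064 and 6419.5 in the others, and they made up 32 of the 324 Cck-positive and 51 of the 679 Cck-negative control cells. Without them, Robo1 in Cck-positive knockout cells had a ratio of 0.598 and Dcc in Cck-positive control cells 0.561, both still past the limit.

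Beside the members, 77 further genes of the same pathways (among them co-receptors, adaptors and kinases) were listed, and 64 had at least 100 UMIs. Between the genotypes 0 of these passed 1.5-fold in either direction, with a median ratio of 0.989. Among the marker comparisons 1 of the 64 (1.56%) was past the limit for Cck, where 1.52% of all genes were lower, and 1 for Chst8 or Alkal2, where 1.73% were, so both shares lie near the background. Draxin, a secreted inhibitor that binds Dcc and netrin, was lower in Cck-positive cells, with 16 and 67 UMIs in control cells with and without Cck, a ratio of 0.450 (0.244 to 0.785), and 3 and 34 UMIs in the knockout, a ratio of 0.219 (0.0429 to 0.695). Chn2, a chimaerin, was lower in Chst8- or Alkal2-positive cells, at 0.444 (0.263 to 0.712) and 0.289 (0.102 to 0.669).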

How the data were processed

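Sorted tdT-expressing hippocampal cells of 2 pooled libraries were profiled by droplet-based single-cell RNA-sequencing from the 3′ end of the RNA. The authors deposited raw UMI counts for every gene and barcode, unfiltered and not normalized. The sources name different processing: Cell Ranger 8.0.1 and mm39 in the submitters' processing notes, version 4 in the matrix header, and another version with mm10 in the methods. Whether intronic reads were counted is not given in the sources used here. Positions were matched by Ensembl identifier to GENCODE M21 (GRCm38) for all 40 members.

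The members and lists were chosen with earlier results of these data known. Barcodes with at least 2000 UMIs and 5 Reln UMIs were kept (1003 of 1011 and 390 of 406 at that depth, the totals being 16336796 and 6777071 UMIs). UMIs were summed per group and divided by all UMIs outside mt-, Rpl, Rps and Mrp genes (192 genes left out), which came to 6601724 and 2765943, using Python 3.11.15, numpy 2.4.6, scipy 1.17.1, pandas 2.3.3 and matplotlib 3.10.9. Ratios carry exact 95% intervals for 2 Poisson counts and shares exact Clopper-Pearson intervals. Genes with at least 100 UMIs over both libraries were tested against 1.5-fold. The largest value a count of 0 allows was set at 3 counts. Doublets were not removed, and leaving out the 8 and 1 cells ranked highest by Scrublet (in scanpy 1.11.5) was an alternative. A cell was called female or male from UMIs of Xist and of 4 genes on the Y chromosome.

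Every member was accounted for. Those with at least 100 UMIs were given in both libraries, with full values for members past the fold and for the leading member of each family, and of the other pathway genes those past the fold were named. Alternatives covered the cell rule, respiratory-gene-high cells, mitochondrial share, doublets, scaling, free RNA, count minimum, fold, sex and marker positivity. Leaving out the cell with the most UMIs of each gene was added after seeing the data. The ratio, its interval, the fold rule and thinning were tested on simulated counts with known answers. The simulated library counts held counting error alone, so variation between cells or animals was not covered. Marker splits, sex calls and the estimate of free RNA were not simulated.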

Additional observations from a re-analysis of the deposited data

Results flagged for a closer look

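In 3 cases a member lay on opposite sides of 1 in the 2 libraries, with intervals that did not overlap, and in none of them was the difference between the libraries tested. Unc5c in Cck-positive over Cck-negative cells had a ratio of 1.05 (0.805 to 1.37) in control cells, on 90 and 161 UMIs, and 0.320 (0.159 to 0.585) in knockout cells, on 12 and 93 UMIs. Epha7 in Chst8- or Alkal2-positive over negative cells had 0.917 (0.803 to 1.05) in control cells and 1.39 (1.14 to 1.68) in knockout cells. Slit2 in the same comparison had 0.414 (0.249 to 0.656) in control cells, on 21 and 154 UMIs, and 1.60 (0.872 to 2.88) in knockout cells, on 20 and 33 UMIs. Its ratio of knockout to control was 2.05 (1.06 to 3.98) in the positive cells and 0.53 (0.353 to 0.776) in the negative cells. All 3 were picked out of 63 such pairs by their values.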

How the results depend on the processing

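Of the members past 1.5-fold between the genotypes (1), 2 were found with at least 50 UMIs, 0 with at least 200, 3 at a fold of 1.25 and 0 at a fold of 2, and 0 in female or in male cells alone. Members with fewer than 100 UMIs within a sex were not counted there. In female cells these included Epha6 at 0.633 and Slit2 at 0.464, both lower, and Ntn5 at 1.76, higher. For Cck the count of 3 became 5 at a fold of 1.25 and 0 at 2. For Grik1 the count of 2 became 1 without respiratory-gene-high cells, with at least 200 UMIs or without the cell with the most UMIs of each gene, 0 against cells with no marker or at a fold of 2, and 4 at 1.25. It stayed at 2 with at least 2 marker UMIs or positivity after thinning, but with Epha6 in place of Efna5. The Cck count stayed at 3 after thinning, with Efnb3 in place of Epha4. For Chst8 or Alkal2 the count of 1 became 0 without respiratory-gene-high cells, with ratios divided by the median ratio, with the mean of per-cell CPM, at a fold of 2 or with at least 2 marker UMIs, 3 with at least 50 UMIs and 2 at a fold of 1.25. The share of all genes past the limit under each changed setting is not given beside these counts, so they are not read against a background. The family ratio of knockout to control for EphA receptors was 0.970 with the mean of per-cell CPM, 0.919 in female cells and 1.08 in male cells. In female and male cells it was 0.836 and 0.912 for Robo receptors and 0.863 and 0.945 for all members, and it was 0.863 in female cells for Unc5 and Dcc receptors. Efna5 in Grik1-positive knockout cells reversed, at 0.816 with at least 2 marker UMIs and 0.988 with positivity after thinning. In each case the cause was not tested, apart from the changed fold, count minimum or number of cells. No paired analysis was possible because each genotype has 1 library. Members under 100 UMIs are too thinly counted to enter any count of differences.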
